A study of Mus musculus with 288 samples.

Results

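The glutathione transferases described here are the 5 genes Gsta3, Gsta4, Gstm1, Gstm2 and Gsto1, out of 24781 genes in the deposited table. They were chosen by name, and all 5 had at least 20 counts in the wells analysed. The cells came from C57BL/6 mice aged 4 months with the genotype Scgb1a1-CreER;Rosa26-mTmG. CreER is a recombinase switched on by drug, here under control of the secretoglobin promoter active in club cells, and mTmG is a fluorescent reporter of recombination. Every sorted well holds this one genotype, and cells were taken as Epcam-positive, CD45-negative, CD31-negative, CD24-low and positive for the Scgb1a1 lineage. The series holds 286 wells with a single sorted cell and 2 negative control wells of medium. No label names the animal of a cell, so all sorted cells count as 1 sample, and cells gave neither p-values nor standard errors. Wells with more than 10 times the 234 counts of the fuller control were kept, which left 227. They were divided by rule into 63 wells in which the surfactant gene Sftpc, a marker of alveolar type 2 cells, made up at least 1% of counts (Sftpc wells), 74 in which the airway secretoglobin Scgb3a1 made up at least 1% (Scgb3a1 wells), and 90 others (other wells). No well passed both cuts. A single well had Sftpc between 0.5 and 2%, and 10 wells had Scgb3a1 in that range, 1 of them below 1% and 9 above.

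Glutathione transferases join the tripeptide glutathione to reactive, electron-poor compounds, which makes them more soluble and readies them for export. In the lung they act downstream of the cytochromes P450 of club cells, the non-ciliated secretory cells of the airways, whose oxidation of inhaled chemicals can yield such reactive products. The cytosolic enzymes fall into classes by sequence. Gsta3 and Gsta4 are alpha class enzymes, and Gsta4 is known for conjugating the lipid peroxidation product 4-hydroxynonenal. Gstm1 and Gstm2 are mu class enzymes, and Gsto1 is an omega class enzyme whose active site cysteine gives it thiol transferase and dehydroascorbate reductase activity.

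In mm10 (GRCm38) coordinates from GENCODE M21, Gsto1 spans chromosome 19, 47854970 to 47864790, on the plus strand. Its omega class neighbour Gsto2 begins 743 bases beyond it on the same strand. Gstm2 (chromosome 3, 107981702 to 107986453) and Gstm1 (chromosome 3, 108012255 to 108017973) lie on the minus strand in the mu class cluster, 25801 bases apart. Gsta3 lies on chromosome 1 (21240589 to 21265661) and Gsta4 on chromosome 9 (78182774 to 78209349), both on the plus strand. Of the 50-base stretches of the first annotated transcript, Gsta3, Gsta4 and Gsto1 shared 0% with any other gene, Gstm1 shared 23.1%, mostly with the pseudogene Gstm2-ps1, and Gstm2 shared 9.36%. Within the last 300 bases, the end that poly(A)-primed reads favour, none of the 5 shared any.

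The bases upstream of Gsto1 and Gstm2 are shown because these 2 members part ways between the airway wells, and those of Gsta3 because its promoter holds the single match to the antioxidant response element core. RefSeq promoters (GRCm38.p6) matched 4 of the 5 members and not Gsta4. Bases already inside the annotated gene are left out. Each run reads 5′ to 3′ on the gene's strand, and capitals mark motif matches on either strand.
Gsto1, chr19:47854723-47854969, plus strand: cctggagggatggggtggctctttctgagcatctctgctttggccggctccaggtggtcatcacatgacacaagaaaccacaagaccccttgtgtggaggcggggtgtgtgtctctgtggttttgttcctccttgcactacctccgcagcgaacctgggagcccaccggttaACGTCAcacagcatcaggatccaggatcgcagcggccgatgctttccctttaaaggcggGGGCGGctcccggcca
Gstm2, chr3:107986454-107986670, minus strand: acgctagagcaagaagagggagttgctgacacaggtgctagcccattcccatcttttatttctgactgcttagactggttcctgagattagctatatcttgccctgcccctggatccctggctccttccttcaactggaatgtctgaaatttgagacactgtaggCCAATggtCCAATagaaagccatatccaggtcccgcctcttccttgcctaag
Gsta3, chr1:21240335-21240584, plus strand: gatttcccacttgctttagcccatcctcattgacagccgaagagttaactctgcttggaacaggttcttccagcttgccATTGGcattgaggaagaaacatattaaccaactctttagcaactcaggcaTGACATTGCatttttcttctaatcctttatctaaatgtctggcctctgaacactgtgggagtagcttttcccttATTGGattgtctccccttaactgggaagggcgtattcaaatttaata
In Gsto1 the capitals are ACGTCA, a cAMP response element core (TGACGT) read on the opposite strand, and the GC box GGGCGG, 78 and 19 bases before the RefSeq start. In Gstm2 they are 2 CCAAT boxes, 85 and 77 bases before the start. In Gsta3 they are TGACATTGC, a match to the antioxidant response element core TGACNNNGC, 121 bases before the start, and 2 CCAAT boxes on the opposite strand (ATTGG), 171 and 47 bases before it. No match overlapped another. The same 250 bases of all 32851 RefSeq promoters, read on both strands, held the antioxidant response element core in 10.2%, the cAMP response element core in 6.47%, the GC box in 32.7% and CCAAT in 33.8%. The AP-1 site TGANTCA (6.75% of promoters), TATAAA (12.4%) and the E box CACGTG (6.02%) were also searched and had no match in these 3 stretches. These matches describe letters only.

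The kept wells held 1259118 counts. Sftpc wells were shallower, with 2384 to 8806 counts per well (median 3529), against 3376 to 15088 (median 6940.5) in Scgb3a1 wells and 2419 to 9718 (median 5406) in other wells. The wells came as 3 successive sets of 96 columns, which the labels do not call plates or batches, and the classes were spread unevenly over them, with 6, 17 and 40 Sftpc wells, 38, 31 and 5 Scgb3a1 wells and 38, 33 and 19 other wells in sets 1, 2 and 3. Scgb1a1, the gene that marks the sorted lineage, had a count in all 227 wells. Of the measured alveolar type 2 markers 10 of 10, with Sftpc that the rule used among them, were at least 2-fold higher in Sftpc wells than in other wells. Of the measured club markers 10 of 10, with Scgb3a1 that the rule also used among them, were at least 2-fold lower there. Scgb3a1 wells had 4 of 5 measured goblet markers at least 2-fold higher than other wells. Summed endothelial, immune, mesenchymal, basal, tuft, neuroendocrine and erythroid markers were at most 12.5 CPM (counts scaled to a common library total) each in any class, with Pecam1 and Ptprc at 0. The 2 controls held 41 and 234 counts and none of any member, which at this depth allows levels of up to 73171 and 12821 CPM.

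All 5 glutathione transferases were at least 2-fold lower in Sftpc wells than in other wells, where 9.68% of 3854 measured genes (at least 20 counts in both classes together) were, and 17.4% were at least 2-fold higher. All 5 were also at least 2-fold lower in Sftpc wells than in Scgb3a1 wells, where 13.2% of 3834 genes were (19.7% higher), although the order of Gstm2 between these classes depended on the wells used. The airway classes parted in 2 members. Gsto1 was 4.26-fold higher in Scgb3a1 wells than in other wells, where 8.13% of 4536 genes were at least 2-fold higher. Gstm2 was lower there, at 0.432 of its level in other wells, and 9.24% of genes were at least 2-fold lower. Gsta3, Gsta4 and Gstm1 differed by less than 2-fold between the airway classes. The members together had 735 CPM in Sftpc wells, 4667 in Scgb3a1 wells and 3266 in other wells. Here a level is the pooled CPM, a gene's counts in all wells of a class divided by all counts of that class and scaled, and a ratio is a log2 ratio of 2 pooled levels. Intervals are exact at 95%, cover counting error only and say nothing of differences between animals. If the molecular barcodes were not collapsed, PCR copies were counted separately and the intervals are too narrow.

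Gsto1 separated the classes most. In Sftpc wells its level per well was 0 at the lowest and at the median and 795 CPM at the highest, against 0, 2442 and 7728 CPM in Scgb3a1 wells and 0, 516 and 4468 CPM in other wells. Scgb3a1 wells were high almost throughout, since 71 of 74 lay above the median of other wells and 10 lay above the highest of them, while the ranges of the classes still overlapped. The pooled level was 83.1 CPM in Sftpc wells (50.8 to 128), from 20 counts in 9 wells. It was 2687 CPM in Scgb3a1 wells (2547 to 2833), from 1379 counts, and 631 CPM in other wells (564 to 705), from 319 counts. The log2 ratio of Scgb3a1 wells over other wells was 2.09 (1.91 to 2.27), which placed Gsto1 as the 115th highest of 4536 measured genes. Goblet markers were likewise higher in Scgb3a1 wells, at a summed 11224 CPM against 216 CPM in other wells over the 7 listed. In Sftpc wells their sum was 199 CPM, but single markers went different ways. Of 3 measured against other wells 1 was at least 2-fold higher, 1 lower and 1 neither, at log2 ratios from -3.42 to 1.43. The part of goblet markers in the ratio was not tested.

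A count of Gsto1 was found in 14.3% of Sftpc wells (6.75 to 25.4%), 95.9% of Scgb3a1 wells and 86.7% of other wells. With every well thinned to the same total, that of the limit for keeping a well, the shares were 7.94%, 94.6% and 62.2%. The shares of the airway classes thus stood further apart after thinning. Their pooled levels did so little, at a log2 ratio of 2.14 thinned against 2.09. Of the 20 Gsto1 counts in Sftpc wells, 14 lay in 5 wells rich in Scgb1a1. The source of these counts was not tested. The log2 ratio of Sftpc wells was -2.93 against other wells (-3.66 to -2.27), the 41st lowest of 3854 genes, and -5.02 against Scgb3a1 wells (-5.73 to -4.38), the 18th lowest of 3834. None of the 63 Sftpc wells reached the median of Scgb3a1 wells. In the airway classes Gsto1 had the largest variance over mean of the members. At equal depth the variance of its count was 3.28 times the mean in Scgb3a1 wells and 2.65 times in other wells. Counting alone gives about 1, and the other 4 members lay between 0.95 and 1.29 in these classes. Where wells differ this ratio grows with the mean count. In Scgb3a1 wells that mean was 6.51 for Gsto1 and 0.38 to 2.04 for the others, so the ratios there do not rank the members by relative spread. In other wells the means were 1.48 for Gsto1 and 0.94 to 2.88 for the others. In Sftpc wells the ratio was 1.26 for Gsto1 and 1.78 for Gstm1.

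Gstm2 was ordered the other way between the airway classes. In Sftpc wells its level per well was 0 at the lowest and at the median and 480.0 CPM at the highest, against 0, 149 and 651 CPM in Scgb3a1 wells and 0, 355 and 1414 CPM in other wells. Most Scgb3a1 wells were low, with 63 of 74 below the median of other wells, and none exceeded the highest other well. Pooled, Gstm2 had 83.1 CPM in Sftpc wells (50.8 to 128, 20 counts), 173 CPM in Scgb3a1 wells (139 to 213, 89 counts) and 402 CPM in other wells (348 to 461, 203 counts). The log2 ratio of Scgb3a1 wells over other wells was -1.21 (-1.59 to -0.85), the 284th lowest of 4536 genes. Alveolar type 2 markers leaned the same way between the airway classes, with 5 of 7 measured at least 2-fold lower in Scgb3a1 wells and 1 higher, and summed 6740 CPM in Scgb3a1 wells and 12016 CPM in other wells. Their part in the ratio was not tested. Without the wells of column set 1 it was -0.98, just short of 2-fold, and within set 3 alone, where 5 Scgb3a1 wells held 6 counts, it was -0.27.

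At equal depth a count of Gstm2 was found in 7.94% of Sftpc wells, 28.4% of Scgb3a1 wells and 60.0% of other wells, against 19.0%, 64.9% and 84.4% before thinning. Against other wells the log2 ratio of Sftpc wells was -2.27 (-3.02 to -1.61). Against Scgb3a1 wells it was -1.06 (-1.84 to -0.35), the smallest of the 5 members' ratios in that comparison and the one whose sign depended on which wells were used. Among wells with more than 4000 counts it was 0.07, and within column set 1, with 6 Sftpc wells and 7 counts, it was 0.58. No direction is given for Gstm2 between these 2 classes.

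The counts of members stand as follows against all genes. Between the airway classes 1 of 5 was at least 2-fold higher in Scgb3a1 wells, 1 lower and 3 neither. Their median log2 ratio was -0.42, and that of all genes was -0.02. In Sftpc wells the median of the 5 was -2.27 against other wells, where that of all genes was 0.18, and -1.62 against Scgb3a1 wells, where it was 0.20. These 2 comparisons share the Sftpc wells and are not independent of each other. Scaled with trimmed-mean (TMM) factors, all genes shifted, and 445 were higher and 561 lower in Sftpc wells than in other wells, where plain totals gave 671 and 373, and median-of-ratios factors gave 484 and 498. Against Scgb3a1 wells the same 3 scalings gave 491 higher and 763 lower, 757 and 506, and 536 and 715, in that order. With TMM factors the median log2 ratio of all genes was -0.14 against other wells and -0.18 against Scgb3a1 wells. The members then lay between -3.24 and -1.83 against other wells and between -5.39 and -1.44 against Scgb3a1 wells, each below that median.

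**Figure D1:**
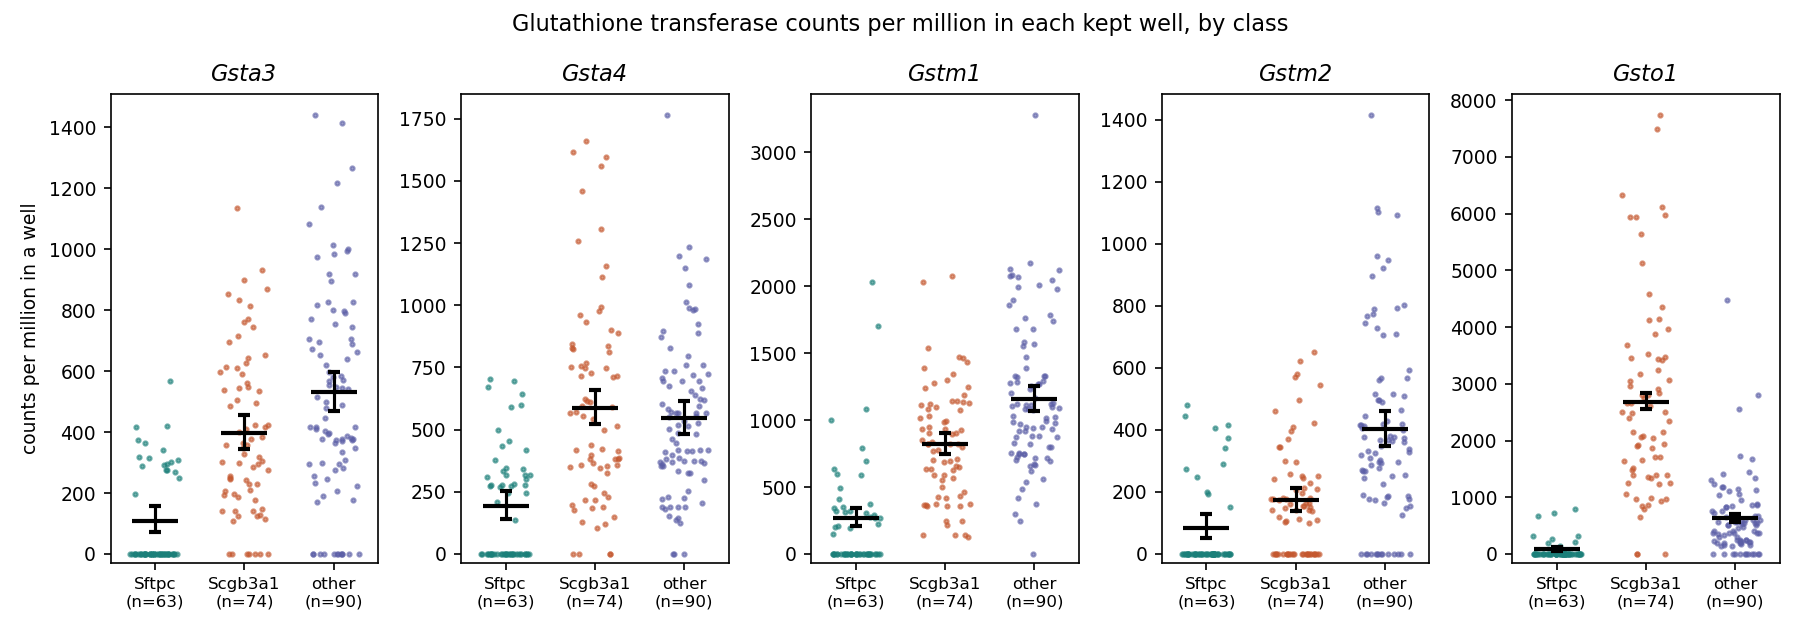
Level of each glutathione transferase in every kept well (points, CPM on a linear axis that differs between panels), for 63 Sftpc wells, 74 Scgb3a1 wells and 90 other wells. Bars are the pooled level with its 95% Poisson interval. Gsto1 is highest in Scgb3a1 wells (2687 CPM pooled), Gstm2 in other wells (402 CPM), and the median Sftpc well is at 0 for each member.

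Gstm1, the mu class neighbour of Gstm2, leaned the same way but by less. Its lowest, median and highest wells were at 0, 0 and 2027 CPM in the Sftpc class, 128, 821 and 2078 CPM in the Scgb3a1 class and 0, 1082 and 3274 CPM among other wells. Every Scgb3a1 well and 89 of 90 other wells held a count, and the ranges of the airway classes overlapped nearly throughout. The pooled level was 270.1 CPM in Sftpc wells (208 to 344), 820.4 CPM in Scgb3a1 wells (744 to 903) and 1156 CPM in other wells (1064 to 1254). The log2 ratio of Scgb3a1 wells over other wells was -0.49 (-0.68 to -0.31), a difference larger than counting error and smaller than 2-fold. In Sftpc wells it was -2.10 against other wells (-2.49 to -1.73) and -1.60 against Scgb3a1 wells (-2.003 to -1.22).

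Gsta3, the alpha class enzyme known in mice for conjugating an aflatoxin epoxide, was also slightly lower in Scgb3a1 wells. Its wells ran from 0 to 568 CPM with a median of 0 in the Sftpc class, from 0 to 1136 CPM with a median of 351 in the Scgb3a1 class and from 0 to 1439.5 CPM with a median of 463 among other wells. Pooled levels were 108 CPM in Sftpc wells (70.6 to 158), 398 CPM in Scgb3a1 wells (345 to 456) and 530.4 CPM in other wells (469 to 598). The log2 ratio of Scgb3a1 wells over other wells was -0.42 (-0.69 to -0.15), and those of Sftpc wells were -2.30 against other wells and -1.88 against Scgb3a1 wells. Scgb3a1 wells and other wells thus overlapped widely, with 27 of 74 Scgb3a1 wells above the median of other wells.

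For Gsta4 no difference between the airway classes was detectable at this depth. Its wells ran from 0 to 705 CPM with a median of 0 in the Sftpc class, from 0 to 1662 CPM with a median of 548 in the Scgb3a1 class and from 0 to 1764 CPM with a median of 517 among other wells. Of the Scgb3a1 wells 38 of 74 lay above the median of other wells. Pooled levels were 191 CPM in Sftpc wells (139.9 to 255), 588 CPM in Scgb3a1 wells (524 to 659) and 546 CPM in other wells (484 to 615). The log2 ratio of Scgb3a1 wells over other wells was 0.11, and its interval of -0.13 to 0.35 leaves room for a difference of up to 1.27-fold. In Sftpc wells Gsta4 had a count in 47.6% of wells (34.9 to 60.6%), against 42.9% for Gstm1, but at equal depth the shares were 31.7% for Gsta4 and 33.3% for Gstm1. Its log2 ratio there was -1.52 against other wells (-1.998 to -1.06) and -1.62 against Scgb3a1 wells.

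Gsto1 and Gstm2 were next followed along the share of Scgb3a1 in a well, over the 164 airway wells. Gsto1 was at 618 CPM in the 67 wells without a count of Scgb3a1 and at 612 CPM in the 22 wells with some Scgb3a1 but under 0.5%. It was at 2263 CPM in the 17 wells of 1 to 3% (1997 to 2554), at 2873 CPM in the 34 wells of 3 to 6% (2657 to 3103) and at 2728 CPM in the 23 wells of 6% or more (2485 to 2987). The single well between 0.5 and 1% had 1669 CPM. Gsto1 thus stood at about the same level in both groups below 0.5% of Scgb3a1 and higher in each group above 1%. Among those above 1%, the pooled level was lower at 1 to 3% than at 3 to 6%, with counting intervals that did not meet. Those intervals leave out the spread between wells, which ran from 0 to 6327 CPM at 1 to 3% and from 0 to 7728 CPM at 3 to 6%. No difference between these groups beyond that spread was tested. The 2 upper groups did not differ beyond their counting intervals. Gstm2 was at 410.3, 385, 276, 159 and 123 CPM over the same 5 groups of at least 17 wells, in rising order of Scgb3a1, with intervals of 347 to 481 in the first and 76.3 to 188 in the last. The level of Gstm1 was 1119 and 1261 CPM in the 2 lower groups and 1010.4, 762 and 768 CPM in the 3 upper ones, and that of Gsta4 showed no order, at 511, 649, 699.5, 533 and 587 CPM. Depth moved along with Scgb3a1, since the median total was 5300 counts in the first of these groups and 7287 in the last, and its part in the levels was not tested.

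**Figure D2:**
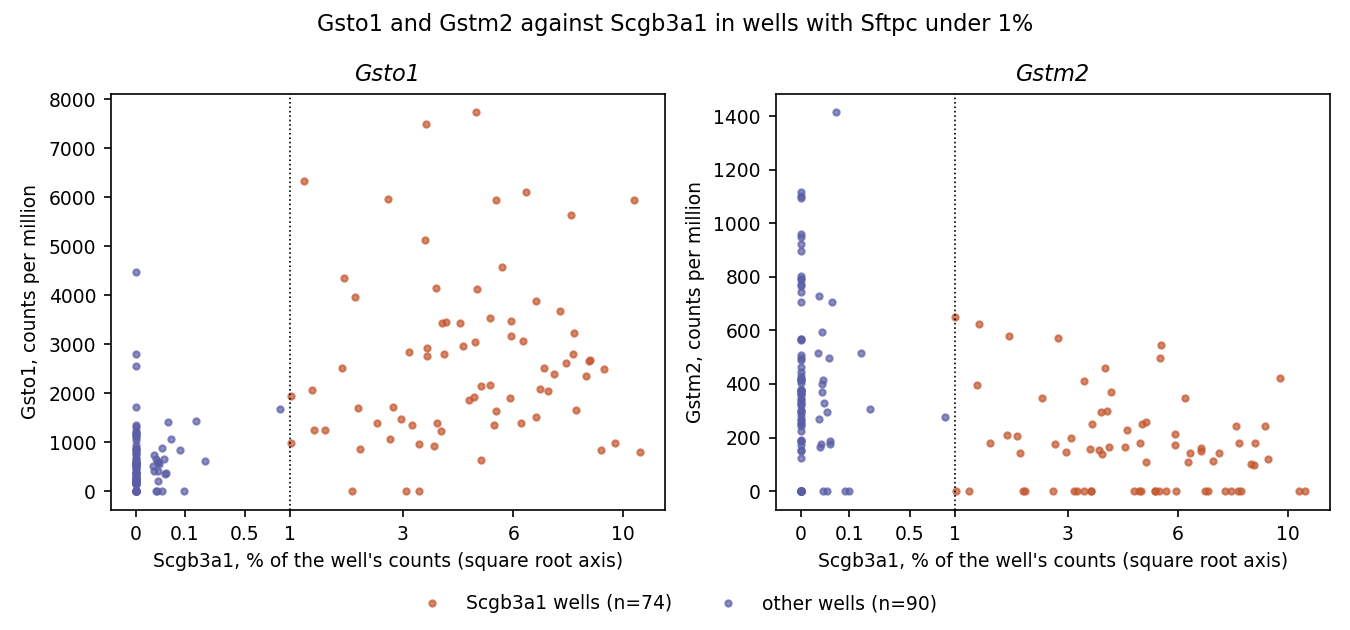
Gsto1 and Gstm2 in each airway well (CPM) against the percent of the well's counts from Scgb3a1, on a square root axis, for 74 Scgb3a1 wells and 90 other wells. The dotted line is the class limit of 1%. Gsto1 is mostly above 1000 CPM to the right of the line, while Gstm2 thins out toward high Scgb3a1.

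Within the other wells, 8 held at least 3 counts of ciliated cell markers. These 8 had 284 CPM of Gsta4 (147 to 495), 142 CPM of Gstm2 (52.0 to 309) and 733 CPM of Gsto1 (498 to 1040.1), against 570.3 (504 to 643), 426 (368 to 489) and 622 CPM (552 to 698) in the remaining 82. The ciliated-marker wells were thus lower in Gsta4 and Gstm2, from 12 and 6 counts, and not distinguishable in Gsto1. Summed over the whole list, ciliated markers had 108 CPM in Sftpc wells, 103 CPM in Scgb3a1 wells and 380.0 CPM in other wells. Leaving the 8 wells out gave log2 ratios of 2.12 for Gsto1 and -1.28 for Gstm2 between Scgb3a1 wells and other wells, close to those with them.

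The transferase counts of Sftpc wells were gathered in few wells. In 5 of the 63, Scgb1a1 made up 10% of counts or more, and these 5 held 11 of the 26 counts of Gsta3, 10 of 46 of Gsta4, 31 of 65 of Gstm1, 11 of 20 of Gstm2 and 14 of 20 of Gsto1. Gstm1 stood at 899.5 CPM in these 5 wells (611 to 1277), at 221 CPM in the 26 wells with 1 to 10% Scgb1a1 (138 to 335) and at 113 CPM in the 32 wells with less than 1% (58.1 to 197). Gsto1 was at 406, 20.1 and 37.5 CPM in the same order, and Gstm2 at 319, 70.3 and 18.8 CPM. Gsta4 varied least, at 290.2, 161 and 188 CPM. The club cell cytochrome Cyp2f2 went with Scgb1a1, at 8386, 1306 and 769 CPM. The 5 wells had a median total of 6906 counts against 3631.5 and 3169.5 in the others, and whether they held more than 1 cell was not tested. Without them, in an alternative chosen after the data were seen, the log2 ratios of Sftpc wells over other wells were -4.44 for Gsto1, -3.20 for Gstm2, -2.81 for Gstm1, -2.87 for Gsta3 and -1.65 for Gsta4.

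Members were counted together in single wells. All 5 had a count in 4 of 63 Sftpc wells, 41 of 74 Scgb3a1 wells and 58 of 90 other wells, and none had a count in 14 Sftpc wells, 0 Scgb3a1 wells and 0 other wells. At equal depth the wells with no member were 26, 0 and 1. Over all 227 kept wells the Pearson r between log levels of 2 members lay between 0.19, for Gstm2 with Gsto1, and 0.52, for Gsta4 with Gstm1. Over the 164 airway wells Gstm2 and Gsto1 had an r of -0.30, Gstm1 and Gsto1 -0.23, and Gstm1 and Gstm2 0.31. Within Scgb3a1 wells alone r for Gstm2 and Gsto1 was -0.22, and within other wells alone it was 0.04. These coefficients describe wells that share library, depth and the class structure, and the counts per well are low.

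The genes whose pattern over the 227 wells was most like each member came from 553 genes with at least 200 counts. Gstm1 ran with the retinal dehydrogenase gene Aldh1a1 (r = 0.75), Cyp2f2 (0.75) and Scgb1a1 (0.68). Gsta3 had the same 3 genes, at 0.60, 0.60 and 0.58. The closest to Gsta4 were Aldh1a1, Cyp2f2 and Gstm1, at 0.57, 0.54 and 0.52, and to Gstm2 Cyp2f2, the carbonyl reductase Cbr2 and Scgb1a1, at 0.57, 0.55 and 0.54. Gsto1 had a different set, with Lypd2 (0.77), the keratin Krt19 (0.74) and the sulfhydryl oxidase Qsox1 (0.73). Lypd2 had 24.9 CPM in Sftpc wells, 2087 CPM in Scgb3a1 wells and 463 CPM in other wells, an order of classes that Gsto1 also had. Over the airway wells alone, among 413 genes, Gsto1 was nearest to the antimicrobial secreted proteins Bpifb1 (0.71) and Reg3g (0.68) and to the ion pump regulator Fxyd3 (0.68), and Gstm2 to the surfactant protein gene Sftpb (0.46), Cyp2f2 (0.41) and the haptoglobin gene Hp (0.39). The closest to Gsta3, Gsta4 and Gstm1 there were weaker, Cyb5a at 0.32 for Gsta3, Ybx1 at 0.26 for Gsta4 and Cbr2 at 0.34 for Gstm1.

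Of 22 further family genes 11 were measured between Scgb3a1 wells and other wells, and 0 were at least 2-fold higher, 4 lower and 7 neither. Their median log2 ratio was -0.02, the same as that of all genes. The lower ones were the alpha class Gsta2 at -2.34 (5 counts against 25), the mitochondrial and peroxisomal Gstk1 at -1.84 (23 against 81), and, singled out after their values were seen, the theta class Gstt1 at -1.56 (29 against 84) and the zeta class Gstz1 at -1.30 (14 against 34). Mgst1, the microsomal transferase, had 1233 and 1101 counts and a log2 ratio of 0.14 (0.02 to 0.26). Gstp1, the pi class enzyme, was at 0.36, but its last 300 bases are shared in full (100%) with Gstp2, so the counts of these 2 genes are uncertain. Gsto2, the omega class neighbour of Gsto1, had 11 counts in Scgb3a1 wells and 1 in other wells, too few to be measured, with a log2 ratio of 3.44 and a counting interval of 0.65 to 8.86. The mu class Gstm6 had 19 counts in Scgb3a1 wells and 0 in other wells, a log2 ratio of 2.64 with 3 counts in place of 0. The lower end of its counting interval was 2.20. Both leaned the same way as Gsto1 and fell below the minimum of 20 counts. Both were singled out after their values were seen.

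Against other wells, Sftpc wells had 0 of 10 measured further family genes at least 2-fold higher, 5 lower and 5 neither, with a median of -0.96 against 0.18 for all genes. Gsta2 was at -2.57, Mgst2 at -1.70, Mgst1 at -1.59 (174 counts against 1101) and Gstp1 at -1.10. Gstt1 was at 0.14 and Gstz1 at 0.15, neither of them lower in Sftpc wells. Against Scgb3a1 wells, 2 of 9 were higher, 4 lower and 3 neither, where 19.7% of all genes were higher and 13.2% lower. The median of the 9 was 0.15, and that of all genes was 0.20. The higher ones, Gstt1 at 1.69 and Gstz1 at 1.45, are 2 of the genes that were lower in Scgb3a1 wells than in other wells.

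**Figure D3:**
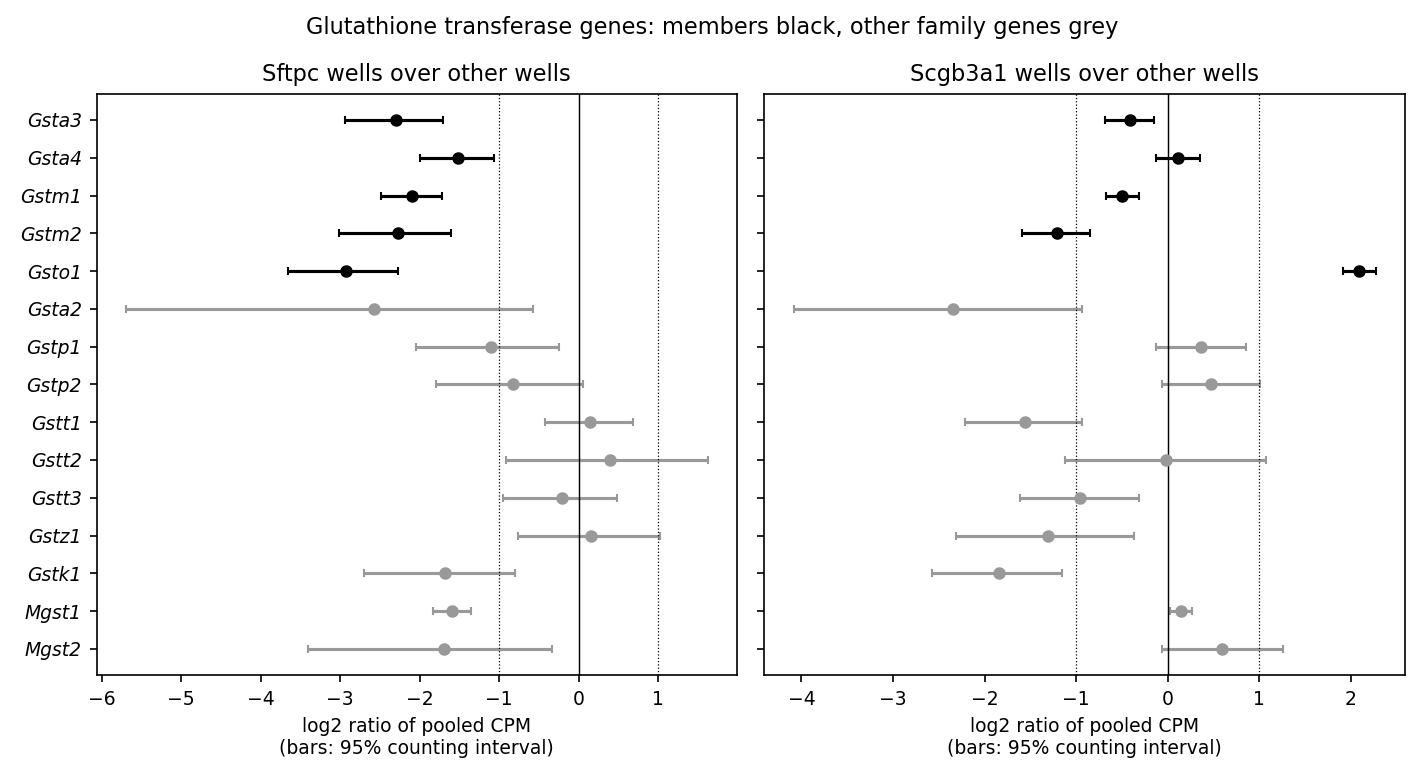
Log2 ratio of pooled CPM for each glutathione transferase gene measured in both comparisons, Sftpc wells over other wells (left) and Scgb3a1 wells over other wells (right), with 95% counting intervals. Mgst3, measured in the right comparison only, is not drawn. Dotted lines mark 2-fold. All 5 members (black) lie left of -1 in the left panel, and the point of Gsto1 alone, at 2.09, lies beyond 1 in the right panel.

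Genes that make, recycle and export glutathione differed little between the airway classes. Of 24 listed 15 were measured, and 1 was at least 2-fold higher in Scgb3a1 wells, 1 lower and 13 neither (median -0.22, all genes -0.02). The exporter genes Abcc4 and Abcc3 were the 2 exceptions, at 2.44 (22 counts against 4) and -2.29 (10 against 48). The subunits of glutamate-cysteine ligase, which makes the first bond of glutathione, were at -0.17 (Gclc) and 0.02 (Gclm), and glutathione reductase Gsr at 0.83. In Sftpc wells against other wells, 2 of 12 were higher, 4 lower and 6 neither (median -0.36, all genes 0.18). There the ligase subunits parted, with the catalytic Gclc at 1.07 (134 counts in each class) and the modifier Gclm at -1.84 (4 against 30), and glutathione synthetase Gss was at -3.29 (2 against 41).

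Of 7 genes for peroxidases that use glutathione or relate to it, 5 were measured. Between Scgb3a1 wells and other wells 1 was lower, Prdx6 at -1.10 (657 counts against 1385), and Gpx8 and Gpx1 were at -0.66 and 0.29. In Sftpc wells against other wells 2 were lower, Gpx2 at -2.15 and Prdx6 at -2.14, and Gpx1 was at 0.55. Targets of NRF2, the transcription factor that binds the antioxidant response element, were mostly within 2-fold. Of 21 measured in Scgb3a1 wells against other wells 1 was higher, malic enzyme Me1 at 1.21, and 3 lower, among them the quinone reductase Nqo1 at -2.48 (4 counts against 22), with 17 neither and a median of -0.01. In Sftpc wells against other wells 3 of 19 were higher, among them heme oxygenase Hmox1 at 1.96 (13 against 7), and 4 lower, among them Cbr3 at -3.60 (2 against 51), with a median of -0.41. Nqo1 had 0 counts in Sftpc wells and 22 in other wells, a log2 ratio of -1.80 with 3 counts in place of 0.

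Genes for factors known to act on transferase promoters were mostly within 2-fold. Between Scgb3a1 wells and other wells 0 of 10 measured were at least 2-fold higher, 1 was lower, Arnt at -2.61 (3 counts against 18), and 9 were neither. Nfe2l2, which encodes NRF2, was at 0.07 (139 against 130), and the small Maf gene Mafk at -0.66. In Sftpc wells against other wells 2 of 10 were higher and 2 lower, where 17.4% of all genes were higher and 9.68% lower. The higher ones reached 1.65. The lower ones were the aryl hydrocarbon receptor Ahr at -3.14 (2 against 37) and Rxra at -1.74 (3 against 21), and Nfe2l2 was at 0.46.

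Phase 1 enzymes, which oxidise or reduce compounds before conjugation, were mostly lower in Sftpc wells. In Sftpc wells against other wells 0 of 18 measured were at least 2-fold higher, 14 lower and 4 neither, with a median of -1.70. Cyp2s1 was at -4.76 (1 count against 57), Aldh1a1 at -4.20 (41 against 1582) and Cyp2f2 at -3.27 (501 against 10155). In Scgb3a1 wells against other wells 2 of 18 were higher and 4 lower, and the median of the 18 was -0.18. The higher of them included Cyp2a5 at 3.17 (338 against 37), the lower Cyp2s1 at -2.86 (8 against 57), and Cyp2f2 was at -0.57. Of 11 listed enzymes of other conjugation reactions 3 were measured. The sulfotransferase Sult1d1 was at 3.32 in Scgb3a1 wells against other wells (203 against 20), higher there as Gsto1 was, and Sult1a1 was at -1.10. In Sftpc wells against other wells Sult1a1 was at 1.47 (25 against 19) and Sult1d1 at -3.25 (1 against 20).

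The levels were also taken within each set of 96 columns. The level of Gsto1 in sets 1, 2 and 3 was 268, 14.8 and 71.6 CPM in Sftpc wells, 2734, 2663 and 2492 CPM in Scgb3a1 wells, and 636, 567 and 787 CPM in other wells, so the order of the classes was the same in all 3 sets and the intervals of the airway classes never met. Gstm2 was at 209, 88.9 and 50.1 CPM in Sftpc wells, 139, 200 and 234 CPM in Scgb3a1 wells and 405, 445 and 282 CPM in other wells. Scgb3a1 wells had less Gstm2 than other wells in each set, with intervals that met in set 3 only. Gsta4 was at 578, 611 and 467 CPM in Scgb3a1 wells and 495, 581 and 576 CPM in other wells, so its order turned round in set 3. Sftpc wells of set 1 stood nearer to the airway wells, for example at 715 CPM of Gstm1 (458 to 1064, 6 wells), against 193 and 201 CPM in sets 2 and 3. Among these 6 wells, those with totals of 6906, 8806 and 6557 counts belong to the 5 Sftpc wells rich in Scgb1a1. They had 2027, 795 and 153 CPM of Gstm1. The Sftpc wells of set 1 with totals of 5042, 2653 and 3594 counts had 198, 0 and 278 CPM. The level of set 1 was not taken again without the wells rich in Scgb1a1. In those 6 wells the log2 ratio against other wells of the set was -0.68 for Gstm1, -0.89 for Gsta4, -0.96 for Gstm2, -1.01 for Gsta3 and -1.24 for Gsto1, so that 3 of the members were within 2-fold.

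**Figure D4:**
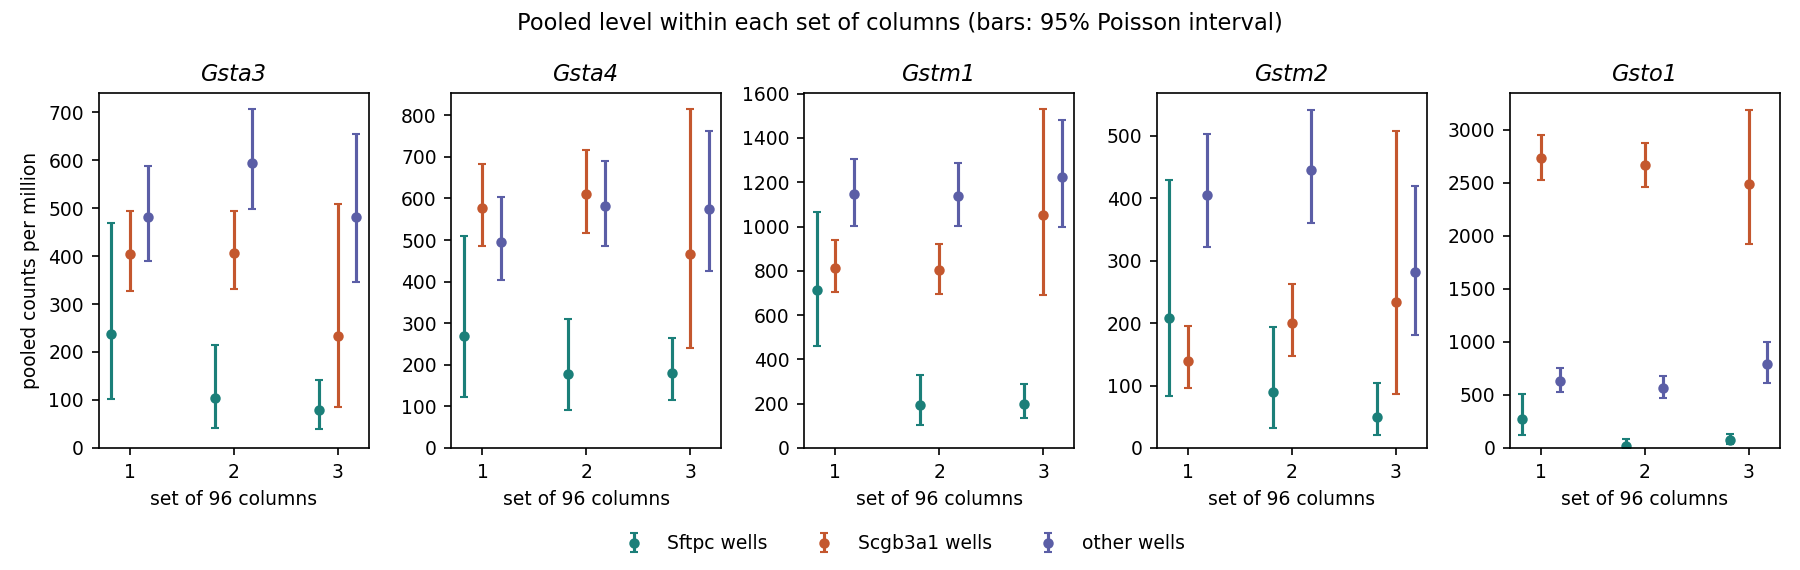
Pooled level (CPM, with 95% Poisson interval) of each member in Sftpc wells, Scgb3a1 wells and other wells within each of the 3 sets of 96 columns. Gsto1 keeps its order of classes in every set, while the Sftpc wells of set 1 (6 wells) have wide intervals that reach toward the airway wells.

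The 59 removed wells, of low total, held 7 counts of Gsta3, 16 of Gsta4, 37 of Gstm1, 7 of Gstm2 and 12 of Gsto1, and were given no class.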

How the data were processed

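The authors deposited 1 table of counts, whole numbers for each gene symbol in each well with no normalization. The RNA of single wells was read after poly(A)-primed reverse transcription with a molecular barcode, template switching and PCR, per the labels' protocols. STAR (an aligner, version not given) and the build mm10 are listed, per the submitters' processing notes. For the annotation, the counting tool, use of strand and collapsing of barcodes, the answer is not given in the sources used here. Spike-in counts were not used here. No 2 wells held identical counts, and 0 columns were left without a sample.

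From these counts, pooled CPM per class was computed with exact Poisson intervals, shares of wells with exact Clopper-Pearson intervals, and ratios of 2 classes with exact conditional binomial intervals, all at 95% (Python 3.11.15, numpy 2.4.6, scipy 1.17.1, pandas 2.3.3). A gene was measured in a comparison from 20 counts in both classes together, and higher or lower from 2-fold. This is a rule of size, not a test, and there is no replicate check. A class at 0 entered at 3 counts. Equal depth means each well thinned without replacement to 10 times the higher control's total, the limit for keeping a well, which left out no kept well, and no doublet caller was run. TMM factors came from edgeR 4.0.16 in R 4.3.3 and served as an alternative scaling only. The method was tested on class sums simulated with counting (Poisson) error only and 200 changed genes. That simulation held no spread between wells, so it does not show how the intervals behave where wells differ. Likeness was Pearson r of log2(counts per 10000 + 1).

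The members, gene lists and tests were chosen with earlier results of these data known. Named were the members, the 2 measured genes of each list with the largest ratio in a comparison, a few genes set by name (Gclc, Gclm, Gsr, Gpx1, Nfe2l2, Gstp1, Mgst1, Cyp2f2, Nqo1) and the 3 genes most like each member. Other choices of wells, well totals, class limits, gene minima, scalings and column sets were tried as alternatives.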

Additional observations from a re-analysis of the deposited data

How the results depend on the processing

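Of 295 log2 ratios of members under other settings, 251 stayed inside the counting interval of the main ratio and 42 lay outside it. The remaining 2 turned the sign of a main ratio of at least 2-fold. Sign changes of smaller main ratios were not counted apart. The cause was not tested. Both sign turns counted here were Gstm2 in Sftpc wells over Scgb3a1 wells, at 0.068 among wells above 4000 counts and 0.58 within column set 1. Both settings kept Sftpc wells rich in Scgb1a1, and so did the main setting and the thinning to equal depth. The Gstm2 ratio was -1.99 with wells thinned to equal depth and -2.22 within set 3. It was -1.99 without the Sftpc wells of 10% Scgb1a1 or more, an alternative chosen after the data were seen.

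Between Scgb3a1 wells and other wells Gsto1 was at least 2-fold higher under all 19 alternatives, at 1.59 with a class limit of 3% and 1.66 within set 3 at the lowest. Within set 3 Gsta3 was at -1.04, Gsta4 at -0.30, Gstm1 at -0.22 and Gstm2 at -0.27. Gsta4, at less than 2-fold in the main setting, kept its sign in 17 of 19. It turned to -0.04 with the class limit of 3% and to -0.30 within set 3.

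For Sftpc wells over other wells, within set 1 the values were -1.01 for Gsta3, -0.89 for Gsta4, -0.68 for Gstm1, -0.96 for Gstm2 and -1.24 for Gsto1. Gstm1 was -2.56 within set 2, -2.61 within set 3, -2.55 without set 1, -1.64 without set 3, -1.69 above 4000 counts and -2.81 without the Scgb1a1-rich Sftpc wells. Gstm2 was -3.31 thinned, -1.19 above 4000 counts and -3.20 without those wells. Gsto1 was -3.96 thinned, -2.001 above 4000 counts, -4.06 with the limit of 3%, -5.26 within set 2 and -4.44 without those wells.

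For Sftpc wells over Scgb3a1 wells, within set 1 Gsta3 was -0.76, Gsta4 -1.11, Gstm1 -0.19 and Gsto1 -3.35. Gstm1 was -2.06 within set 2, -2.39 within set 3, -2.06 without set 1, -1.14 without set 3, -1.18 above 4000 counts and -2.31 without the Scgb1a1-rich wells. Gsto1 was -6.10 thinned, -4.15 above 4000 counts, -7.49 within set 2 and -6.53 without those wells.

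Counts of genes at least 2-fold higher and lower moved with the gene minimum. In Scgb3a1 wells over other wells they were 1836 and 2473 with none and 139 and 116 with 50 counts, against 369 and 419. In Sftpc wells over other wells they were 4184 and 1024 with none, 216 and 141 with 50 counts and 445 and 561 with TMM factors, against 671 and 373. In Sftpc wells over Scgb3a1 wells they were 4435 and 1103, 256 and 223, and 491 and 763, against 757 and 506. No paired analysis was possible because the sorted cells and the controls share only running numbers. Members with 20 counts in Sftpc wells (Gstm2, Gsto1) have levels known to no better than their intervals, and no animal is named for any well.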
